A study of Homo sapiens with 9 samples.

Results

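This report describes RNA-seq counts of scramble-guide LA cells (sgScr) set against parental A549 cells (control), for every autosomal gene. A549 is a human lung adenocarcinoma cell line. Of the 26364 gene names counted in the series, 24978 had an autosomal position and were the members, 19020 of them had at least 1 count in the 5 libraries compared, and 13913 passed the expression filter and were tested. The comparison used 5 of the 9 libraries of the series. The 3 sgScr libraries had the genotype sgScr; sgLOC388942; sgALK, which is to say that these cells carried the LOC388942-ALK (LA) fusion made by guides at both loci and, on top of it, a scramble guide with no intended target. The 2 control libraries came from A549 cells labelled WT. The 2 LA libraries (sgLOC388942; sgALK), which share the same controls, were set beside sgScr for the direction of each change and compared with it directly. Per the study's methods, the fusion was made in Cas9-expressing A549 cells with lentiviral guide vectors that carry mCherry, and the LA strain was grown from single cells. Whether the sgScr libraries came from the same clone as the LA libraries was not given in the sources used here. Clone, Cas9, virus and fusion therefore cannot be told apart in sgScr against control. No source says that the replicates were separate cultures, so that p-values measure only the spread between these libraries, which may be technical.

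ALK is a receptor tyrosine kinase that is normally silent in lung epithelium. When a rearrangement places its kinase domain under a foreign promoter, it signals through RAS and ERK, PI3K and AKT, and JAK and STAT3. Signalling through ERK is known for switching on immediate-early genes, such as FOS and EGR1, within minutes, partly through serum response factor (SRF) bound at CArG boxes in their promoters, and ERK activity in turn raises its own inhibitors, the DUSP phosphatases and the Sprouty proteins.

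Total counts ranged from 17189253 to 20456341 over the 5 libraries. The sgScr libraries lay close together (chi-square per degree of freedom of 1.79 to 2.72 between pairs, where 1 is sampling noise). The control libraries lay far apart (134), as did the LA libraries (62.3). The sgScr libraries differed by more than sampling noise and were counted as 3, which does not show that they were separate cultures. Control replicate 2 lay nearer to the sgScr libraries (Pearson r of log2 CPM of 0.951 to 0.953 across genes) than control replicate 1 did (0.885 to 0.887). Cytosolic ribosomal proteins took 12.9% and 8.58% of the control counts and 4.75% to 4.83% of the sgScr counts. Epithelial keratins were abundant in every library, with KRT18 at 1637 CPM (read counts scaled for library size) or more, while the lung identity gene NKX2-1 had at most 1 count in any of the 5 libraries and SFTPC at most 4. Markers of leukocytes (PTPRC and CD3E) had 0 counts in all 5, and the 6 endothelial markers together came to between 0.193 and 0.706 CPM. The 8 leukocyte markers summed to 77.6 and 55.5 CPM in control and 41.3 to 43.9 CPM in sgScr, with CD14 lower (log2 fold change of -2.03 ± 0.20, SE) and ITGAM higher (1.65 ± 0.36) in sgScr. The 8 fibroblast markers summed to 26.6 and 15.5 CPM in control and 13.9 to 14.7 CPM in sgScr. Their part in the results was not tested. In bulk cultures, fewer cells of a type and less RNA per cell cannot be told apart.

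ALK, the targeted gene, had 4, 1 and 3 counts in the sgScr libraries and 0 in both control libraries. Set against a floor of 3 counts over the control group, ALK was 1.47-fold higher in sgScr. That figure leaves out the counting error of the sgScr counts, so that it is not a lower bound. In LA, ALK had 2 and 15 counts. The LA libraries lay at 0.122 and 0.834 CPM and the sgScr libraries at 0.189, 0.0483 and 0.171 CPM, so that the groups overlapped. The ratio of sgScr to LA in CPM over the pooled counts was 0.272 (exact 95% interval from 0.102 to 0.666, counting error only) and rested on LA replicate 2. These counts were too few for the test. LOC388942, the long noncoding RNA at the other end of the fusion, had 7, 11 and 6 counts in sgScr and 8 and 2 in control, a ratio of 1.32 with an exact interval from 0.609 to 3.09. In LA it had 0 and 1 counts, so that sgScr lay above LA by a ratio of 13.9 (exact interval from 2.27 to 571). SLC8A1, the sodium-calcium exchanger gene next to that breakpoint, had 7 and 8 counts in control and 35, 38 and 24 in sgScr. Its log2 fold change was 1.82 ± 0.36 (SE, adjusted p = 0.0130, edgeR's quasi-likelihood test with Benjamini-Hochberg adjustment), and 0.52 (adjusted p = 0.289) once library trends with transcript length and GC content were removed.

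The differences between sgScr and control were broad. At an adjusted p under 0.05, 2743 autosomal genes (19.7% of those tested) were higher in sgScr and 3024 (21.7%) were lower, and 1718 and 1841 of these differed by at least 2-fold. The libraries of the groups did not overlap for 4987 genes higher in sgScr (35.8%) and 4637 lower (33.3%). The number of calls depended on each library. Without sgScr replicate 1, 2 or 3 the same edgeR test called 113, 3 and 3 genes higher and 11, 0 and 0 lower, although 5136 to 5332 genes then had an unadjusted p under 0.05 and 4017 to 4204 an adjusted p under 0.1. Without control replicate 1 it called 4894 higher and 4607 lower, and without control replicate 2 it called 5807 and 5451. In these fits 100% (to 3 digits) of the genes called in the full comparison kept their sign where tested. Those genes were called with the same libraries, so that a kept sign is not separate evidence for the calls. Of 136 genes named below or in the gene lists, 51 moved by more than 1.5-fold when a control library was left out, and 0 turned in sign.

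Most immediate-early genes rose in sgScr. EGR1 and SRF are shown here because they are the members of the list whose promoter windows held CArG boxes, the letters in capitals. The windows run from 250 bases before to 50 after the annotated start (RefSeq, GRCh38.p14), at chr5:138465229-138465528 and chr6:43171019-43171318, both on the plus strand.
EGR1: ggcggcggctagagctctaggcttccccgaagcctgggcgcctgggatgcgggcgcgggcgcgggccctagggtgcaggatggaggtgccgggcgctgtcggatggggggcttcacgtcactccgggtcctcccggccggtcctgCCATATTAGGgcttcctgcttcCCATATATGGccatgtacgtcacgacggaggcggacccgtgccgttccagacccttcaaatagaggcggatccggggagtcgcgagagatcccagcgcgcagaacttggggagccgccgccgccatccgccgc
SRF: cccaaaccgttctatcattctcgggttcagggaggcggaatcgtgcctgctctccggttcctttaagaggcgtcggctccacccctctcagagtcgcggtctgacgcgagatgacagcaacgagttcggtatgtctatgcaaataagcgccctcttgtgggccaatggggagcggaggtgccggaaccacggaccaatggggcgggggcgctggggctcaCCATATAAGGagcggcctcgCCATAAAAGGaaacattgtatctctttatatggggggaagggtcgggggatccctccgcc
Each window held 2 CArG boxes, which began 105 and 83 bases before the start in EGR1 and 30 and 10 bases before it in SRF. A CArG box on either strand was found in 2 of 24 immediate-early promoters matched (8.33%), in 1.29% of all 27305 promoters, in 1.29% of those of genes called higher and in 1.06% of those of genes called lower. The windows of FOS, FOSB and JUN held none of the 3 motifs searched, the others being TGANTCA (an AP-1 site) and TGACGTCA (a cyclic AMP response element), which says only that these letters are not in those windows.

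EGR1, a zinc-finger transcription factor (GRCh37 chr5:137801168-137804992), had 74 and 73 counts in control and 5187, 5269 and 4087 in sgScr. Its mean rose from 4.51 ± 0.336 CPM (SD, n = 2) to 244 ± 10.7 CPM (SD, n = 3), a 54.2-fold difference. The log2 fold change of 5.77 ± 0.18 (SE) had an adjusted p of 0.000732 in edgeR's quasi-likelihood test, the smallest of the comparison. FOS, the founding subunit of the AP-1 dimer (GRCh37 chr14:75745529-75748933), had 167 and 155 counts in control, 4198, 4037 and 3528 in sgScr and 5448 and 1660 in LA. The change was 4.34 ± 0.17 (SE, adjusted p = 0.00146) in sgScr and 4.41 in LA, and the direct comparison of sgScr with LA gave -0.12 (adjusted p = 0.87). FOS, EGR1 and ZBED6 were called under each of 16 alternative settings, including each library left out. FOSB, a second FOS protein, had 17 and 2 counts in control and 1515, 1364 and 867 in sgScr, and rose by 6.72 ± 0.63 (8.98 without control replicate 1 and 5.84 without control replicate 2). JUN, the partner of FOS proteins, had 178 and 294 counts in control, 2960, 2905 and 2602 in sgScr and 1267 and 989 in LA. It rose by 3.32 ± 0.24 and lay 1.09 (log2, adjusted p = 0.0080) above LA. All 3 sgScr libraries stood above both control libraries for each of these genes.

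In the whole list, 31 of 34 immediate-early genes were tested, 19 rose (61.3%, against 19.7% of all genes) and 1 fell, with a median log2 fold change of 1.08 beside 0.0175 over all autosomal genes tested. JUND, a JUN family member, was the gene that fell (-1.66, adjusted p = 0.0103). In LA against the same controls, 16 rose (9.62% did over all genes) and 0 fell (9.76%), with a median of 1.49. After the length and GC correction, 25 members were called higher and 2 lower, beside 21.6% and 18.8% of all genes, with a median of 1.24. The median over the list was 1.02, 0.959 and 0.954 above the control mean (log2 CPM) in sgScr replicates 1, 2 and 3, and 1.22 and 1.37 above it in LA.

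Most genes of the list of ERK feedback regulators and ETS targets rose too. Of 22 tested, 14 rose (63.6%, against 19.7% of all genes) and 0 fell (21.7% of all genes did), with a median of 0.87. In LA 4 of 21 rose and 0 fell, beside 9.62% and 9.76% of all genes, with a median of 0.71. Between sgScr and LA directly 3 of 21 were higher in sgScr and 4 lower, beside 10.4% and 12.5% of all genes, with a median of 0.04. DUSP6, a phosphatase of ERK, had 95 and 179 counts in control, 471, 517 and 418 in sgScr and 311 and 274 in LA. Its change was 1.52 ± 0.27 (SE, adjusted p = 0.0107) in sgScr and 1.01 (adjusted p = 0.13) in LA, but the direct difference of 0.45 between sgScr and LA had an adjusted p of 0.06. SPRY4, a Sprouty inhibitor of receptor signalling, rose by 1.35 ± 0.21 and was 0.52 higher in sgScr than in LA (adjusted p = 0.027). SPRY1 rose by 1.15 ± 0.25. DUSP1, a phosphatase of stress kinases and ERK, rose by 1.44 ± 0.25 yet differed from LA by -1.0 (adjusted p = 0.0056). The plot of growth-signalling genes shows these counts by library.

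**Figure D1:**
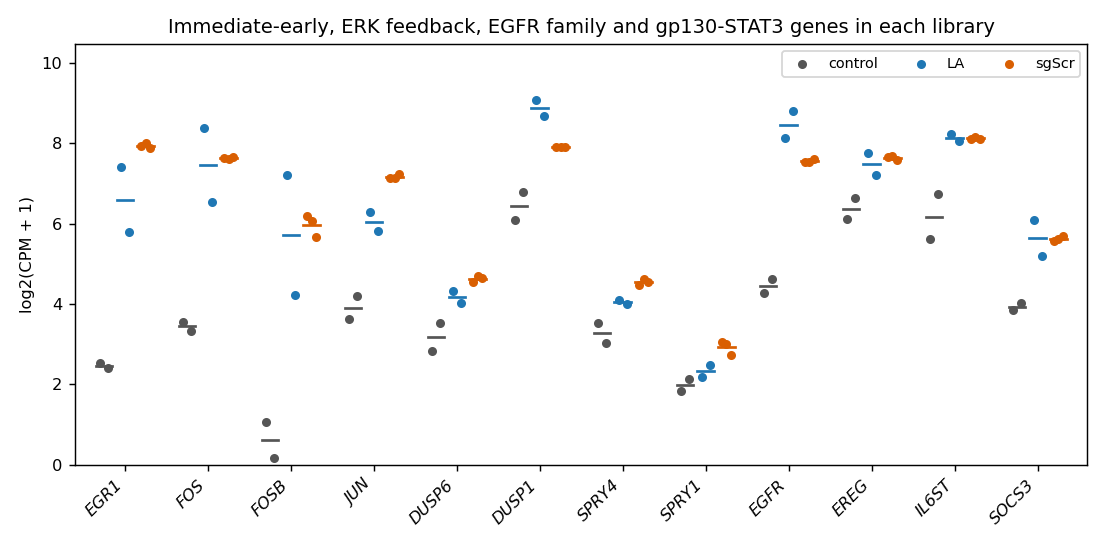
Each point is 1 library, on the log2(CPM + 1) scale (CPM after TMM scaling), and the bars mark group means for control (grey, n = 2), LA (blue, n = 2) and sgScr (orange, n = 3). The sgScr points lie close together and above both control points for all 12 genes, while the 2 LA points of EGR1, FOS and FOSB lie far apart.

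Of the EGFR family, 2 of 11 members tested rose (18.2%, near the 19.7% of all genes) and 0 fell (21.7% of all genes), with a median of 0.20. These 2 were the receptor EGFR and the ligand EREG, and the other 9 were not called. In LA 2 of 12 rose and 1 fell, beside 9.62% and 9.76% of all genes, with a median of 0.89. Between sgScr and LA directly 1 of 12 was higher in sgScr and 5 were lower, beside 10.4% and 12.5% of all genes. EGFR (GRCh37 chr7:55086710-55279321) had 288 and 407 counts in control, 3875, 3820 and 3418 in sgScr and 4558 and 7971 in LA. It rose by 3.15 ± 0.19 in sgScr (adjusted p = 0.00404), a difference of 8.87-fold in CPM, and differed from LA by -0.96 (adjusted p = 0.020). EREG, the gene for epiregulin, rose by 1.26 ± 0.21. After the length and GC correction EGFR and EREG stood at 2.43 and 0.85. The genes of the JAK and STAT pathway were called in 1 direction, with 11 of 22 higher (50%) and 0 lower, and a median of 0.74 in sgScr and in LA. IL6ST, the shared receptor subunit gp130, had 747 and 1806 counts in control and 5764, 5896 and 4820 in sgScr and rose by 1.85 ± 0.36 (1.39 without control replicate 1 and 2.54 without control replicate 2). SOCS3, the feedback inhibitor that STAT3 induces, rose by 1.76 ± 0.17. LIFR rose by 1.61 ± 0.35 (2.31 without control replicate 2) and OSMR by 1.34 ± 0.33 (0.89 without control replicate 1 and 1.99 without control replicate 2). The members of that list had a median transcript length of 5456 bp, against 3739 bp over the genes tested. After the length and GC correction 7 of 22 were called higher and 0 lower, beside 21.6% and 18.8% of all genes. The median was then 0.28. IL6ST, SOCS3, LIFR and OSMR stood at 1.09, 2.24, 0.74 and 0.89 with that correction.

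In the lists of YAP targets, integrins and laminins, collagens and mesenchymal genes more members rose than fell, as counted and after the length and GC correction. The members tested had median lengths of 4178, 5918, 6493 and 4582 bp in that order, against 3739 bp over the genes tested. In the longest of 5 equal groups of genes by length, 1356 of 2746 rose. The list medians were 0.86, 0.88, 0.43 and 0.55 as counted and 0.62, 0.54, 0.29 and 0.32 after correction. Of 24 YAP, TEAD and target genes, 13 rose (54.2%) and 1 fell, and 13 and 0 did so in LA. TEAD1, the DNA-binding partner of YAP, rose by 1.54 ± 0.20, CRIM1 by 1.53 ± 0.23, the YAP-binding phosphatase PTPN14 by 1.38 ± 0.14 and AMOTL2, an angiomotin that binds YAP, by 1.36 ± 0.13. After correction TEAD1, CRIM1, PTPN14 and AMOTL2 stood at 0.77, 1.03, 0.42 and 1.27. Among 28 integrin and laminin genes, 11 rose (39.3%, against 19.7% of all genes) and 1 fell (3.57%, against 21.7%). LAMA3, a laminin alpha chain of epithelial basement membranes, had 332 and 372 counts in control and 2265, 2149 and 1813 in sgScr. It rose by 2.29 ± 0.14 and lay above LA by 0.84 (adjusted p = 0.025). LAMC1 rose by 1.93 ± 0.20, and the collagen receptor subunit ITGA2 by 2.21 ± 0.37 (2.92 without control replicate 2).

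Of 20 collagen genes tested 6 rose (30%, against 19.7% of all genes) and 1 fell (5%, against 21.7%). Among those that rose were COL12A1 (1.77 ± 0.22), COL4A1 (1.70 ± 0.28) and COL5A2 (1.49 ± 0.23), which stood at 0.88, 1.29 and 0.91 after correction. COL11A1, a minor fibrillar collagen, was the gene that fell. It had 31 and 45 counts in control, 130 and 213 in LA and 0 in all 3 sgScr libraries. Set against a floor of 3 counts over the sgScr group, control lay 46.1-fold and LA 198-fold higher. Of the mesenchymal genes 14 of 34 rose (41.2%) and 5 fell (14.7%). The fibrillins FBN2 (233 and 428 counts in control, 2619, 2586 and 2286 in sgScr) and FBN1 rose by 2.66 ± 0.27 and 2.20 ± 0.30. Thrombospondin THBS1 rose by 1.62 ± 0.30. After correction FBN2, FBN1 and THBS1 stood at 1.89, 1.36 and 0.94. The gelatinase MMP9, with 30 counts in control and 10 in sgScr, fell to 0.183 of control (exact interval from 0.0800 to 0.385). MMP9 was not called after the correction (log2 fold change of -1.58, adjusted p = 0.0759).

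Of the epithelial junction and keratin genes 15 of 38 rose (39.5%, against 19.7% of all genes) and 7 fell (18.4%, near the 21.7% of all genes). KRT6A, a keratin of stratified and wounded epithelium, had 0 counts in control and LA and 9, 11 and 18 in sgScr. That was 6.97-fold above a floor of 3 counts over the control group. KRT20, an intestinal-type keratin (0 and 8 counts in control and 31, 28 and 32 in sgScr), the grainyhead factor GRHL1 (7 and 16 against 93, 69 and 86) and the epithelial splicing regulator ESRP1 (4 and 2 against 22, 22 and 16) rose from low counts. Ratios to control were 6.26 for KRT20 (exact interval from 3.05 to 14.9) and 5.50 for ESRP1 (from 2.39 to 15.6). The log2 change of KRT20 was 2.64, 1.70 without control replicate 1 and 7.86 without control replicate 2, that of GRHL1 2.58 and 3.21 without control replicate 2, and that of ESRP1 2.42 and 3.04 without control replicate 1. E-cadherin, CDH1, had 287 and 372 counts in control and 1489, 1424 and 1199 in sgScr, and rose by 1.79 ± 0.16. The simple-epithelial keratins KRT8 and KRT18 fell (log2 fold changes of -1.46 and -1.73), and KRT7 fell (-1.09; -0.46 without control replicate 1) but stood at 0.02 (adjusted p = 0.87) after the length and GC correction.

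More interferon-stimulated genes fell than rose in sgScr. Of 38 tested, 16 fell (42.1%, against 21.7% of all genes) and 3 rose, with a median of -0.69, whereas in LA 3 of 42 fell and 9 rose, with a median of 0.63. In the direct comparison of sgScr with LA, 29 of 40 were lower in sgScr and 0 were higher, beside 12.5% lower and 10.4% higher over all autosomal genes tested there. After the length and GC correction 17 were called lower than control and 3 higher. ISG15, a ubiquitin-like modifier, had 371 and 132 counts in control, 91 and 138 in LA and 51, 24 and 33 in sgScr. Its log2 fold change was -3.09 ± 0.53 (SE, adjusted p = 0.00953), -2.08 without control replicate 1 and -3.70 without control replicate 2. After the length and GC correction ISG15 stood at -1.32. MX1, an antiviral GTPase, had 99 and 64 counts in control, 63 and 213 in LA and 31, 27 and 23 in sgScr. The guanylate-binding protein GBP1 (31 and 44 counts in control, 64 and 93 in LA and 11, 7 and 12 in sgScr) and the DNA sensor IFI16 (45 and 108, 154 and 179, and 30, 23 and 22) were lowest in sgScr too. MX1, GBP1 and IFI16 fell against control (-1.87, -2.14 and -1.87, with IFI16 at -1.18 without control replicate 2) and were lower than in LA (-2.54, -3.16 and -2.95). For these 3 genes no sgScr library reached the lower control library.

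Of 21 genes of antigen presentation by MHC class I, 11 were lower in sgScr than in control (52.4%) and 4 higher, with a median of -0.83. Unlike the interferon-stimulated genes, they did not rise in LA, where 5 of 21 fell and 1 rose, with a median of -0.47. Over all genes 9.76% fell and 9.62% rose in LA. Between sgScr and LA directly 5 were higher in sgScr and 7 lower, beside 10.4% and 12.5% of all genes, with a median of 0.01. HLA-B had 819 and 343 counts in control and 123, 115 and 93 in sgScr and fell (-2.69; -1.85 without control replicate 1). The immunoproteasome genes PSMB10 and PSMB8 and the activator gene PSME1 fell (-1.79, -1.21 and -1.27, with PSMB10 at -1.12 without control replicate 1), and after correction PSMB10 and PSME1 were not called (-0.24 and -0.18). With the correction, 6 of the 21 were lower and 3 higher, with a median of -0.18. HLA genes are highly variable between people and similar to each other, so that counts on a single one depend on how the authors placed shared reads. Among 39 NF-kappa B targets and inhibitors 8 rose and 8 fell (20.5% each), near the 19.7% and 21.7% of all genes. After correction 15 were higher and 4 lower, beside 21.6% and 18.8% of all genes. REL, a subunit of NF-kappa B, rose from 56 and 75 counts to 709, 642 and 578 (3.03 ± 0.19), the chemokine CXCL6 rose from 5 and 10 counts to 32, 42 and 31, and the protease PLAU rose by 1.57 ± 0.19. The chemokine CCL2 fell from 1361 and 1503 counts to 606, 504 and 438, a log2 change of -1.74 ± 0.14, and was lower than in LA (-2.71, adjusted p = 0.019).

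The lists with the highest shares of lower genes were short, abundant housekeeping transcripts. Of 74 cytosolic ribosomal protein genes 70 fell (94.6%, against 21.7% of all genes) and 0 rose (19.7% of all genes did), with a median of -1.38. In LA 71 of 74 fell (9.76% of all genes did), with a median of -2.11. RPS21 had 24717 and 10430 counts in control and 4262, 4231 and 3623 in sgScr and fell (-2.41; -1.58 without control replicate 1). RPLP1, RPS15 and RPLP2 fell as well (-2.38, -2.17 and -2.04, with RPLP1 at -1.63 and RPLP2 at -1.02 without control replicate 1, and RPLP2 at -2.65 without control replicate 2). After the correction RPS21, RPLP1 and RPS15 stood at -1.04, -1.95 and -1.14, and RPLP2 was not called (-0.50, adjusted p = 0.113). In the direct comparison 52 of 73 ribosomal protein genes were higher in sgScr than in LA and 0 were lower, beside 10.4% and 12.5% of all genes. Among 71 nuclear-encoded subunits of the respiratory chain 60 fell (84.5%) and 0 rose, beside 21.7% and 19.7% of all genes. ATP5D, NDUFS8, NDUFB7 and COX6B1 had log2 fold changes of -2.54, -2.25, -2.01 and -1.97, and of -1.65, -1.38, -1.07 and -1.21 without control replicate 1 (NDUFB7 -2.60 without control replicate 2). After the correction they stood at -1.26, -1.79, -0.12 and -0.69, and NDUFB7 was not called (adjusted p = 0.451).

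These decreases followed transcript length. The log2 fold change rose with the length of the longest transcript (Spearman rho 0.535 across 13733 genes, which are not independent replicates) and fell with GC content (rho -0.367), and the same held for LA with length (0.518). Median changes ran from -0.80 in the shortest of 5 equal groups of genes by length to 0.78 in the longest, with 120 genes higher and 1357 lower in the first and 1356 higher and 136 lower in the last. Genes called higher had a median length of 6098 bp and those called lower 2247 bp. Between the control libraries the same trends were seen (rho 0.30 with length and -0.632 with GC for control 2 minus control 1), and sgScr replicate 2 minus replicate 1 did not (0.0217 with length). With the trends removed by a loess offset, 2962 genes were called higher and 2585 lower, and 1943 and 1613 of these were among those called without it. Of the 136 named genes, 68 moved by more than 1.5-fold with the correction and 15 were no longer called, namely SLC8A1, KRT7, CEBPD, ID1, HOXB2, HOXA5, PSMB10, PSME1, MMP9, TALDO1, RPLP2, NDUFB7, ROR2, NPW and SCX. Ribosomal protein genes then had a median of -0.92 with 48 of 74 lower and 2 higher, and respiratory chain genes -0.48 with 36 of 71 lower and 6 higher. The part of library preparation or RNA quality in this trend was not tested.

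**Figure D2:**
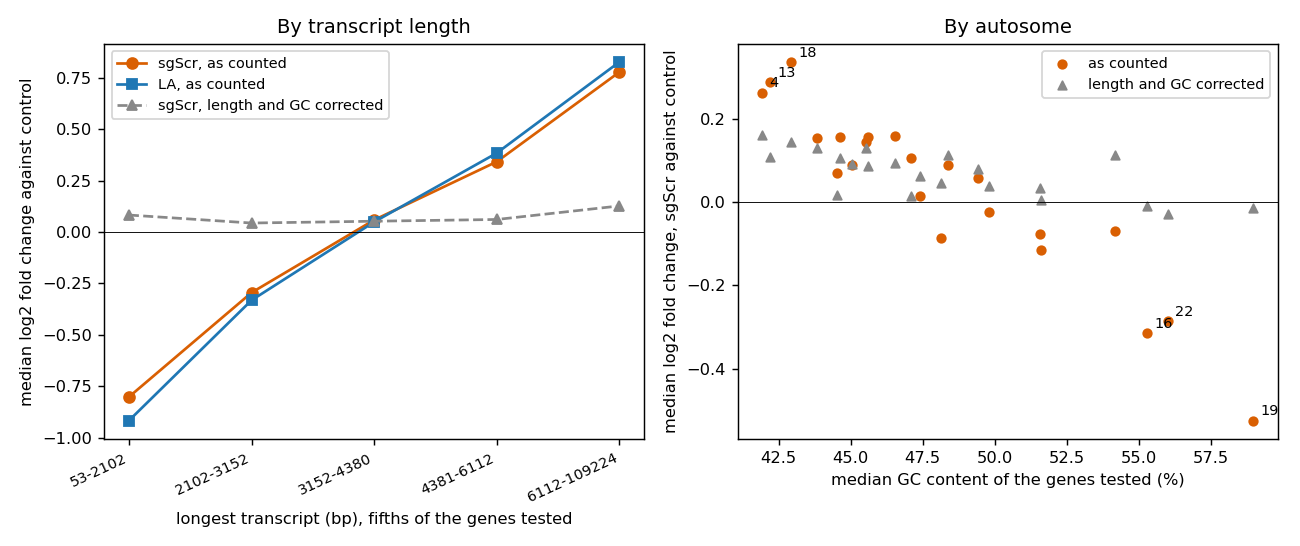
On the left, the median log2 fold change against control in 5 equal groups of the genes by length of the longest transcript (bp), for sgScr (orange), LA (blue) and sgScr after the length and GC correction (grey), runs from -0.80 to 0.78 in sgScr. On the right, each point is 1 autosome, placed by the median GC content of its tested genes and its median log2 fold change, with chromosome 19 lowest at -0.53 and chromosome 18 highest at 0.34 before the correction.

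Autosomes followed this trend. Chromosome 19, the autosome with the highest GC content here (median 59.0%), had a median of -0.53 with 83 of 1011 genes higher (8.21%) and 365 lower (36.1%), and chromosome 18 (42.9%) had a median of 0.34. The difference between the highest and lowest autosome was 0.864, and 0.190 after correction. Chromosome 2, which carries ALK and LOC388942, had a median of 0.07, with 205 of 960 genes higher and 178 lower. The 44 genes tested between 30000001 and 40000000 on chromosome 2 (GRCh37), which lie between both guide sites, had a median of -0.28 in sgScr (-0.37 after correction) and 0.05 in LA. In sgScr 9 of them were higher and 15 lower, beside 19.7% and 21.7% of all autosomal genes tested.

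Stress and metabolic genes were mixed. Over all autosomal genes tested 19.7% rose and 21.7% fell, and 21.6% and 18.8% did so after correction. Of 39 unfolded protein and ATF4 response genes 16 rose (41.0%) and 2 fell, and 25 and 2 did so after correction. The endoplasmic reticulum stress sensor ERN1 had 28 and 29 counts in control and 364, 339 and 284 in sgScr and rose by 3.25 ± 0.19, EIF2AK3 (the sensor PERK) rose by 1.53 ± 0.28 and SEL1L by 1.73 ± 0.38 (2.51 without control replicate 2), and the stress-induced NUPR1 fell (-2.30; -1.62 without control replicate 1). Among 42 NRF2 antioxidant genes 16 fell (38.1%) and 9 rose, but after the length and GC correction 9 were lower and 13 higher, with a median of -0.18 before it and 0.09 after. A549 carries a KEAP1 mutation that keeps NRF2 active, and AKR1C1, an aldo-keto reductase, had 44959 and 35043 counts in control and 15026, 14695 and 12689 in sgScr. AKR1C1, GPX2, TXN and TALDO1 fell (-1.77, -1.67, -1.67 and -1.56, with TALDO1 at -0.89 without control replicate 1). After correction AKR1C1, GPX2 and TXN stood at -2.48, -0.58 and -0.80, and TALDO1 was not called (-0.42, adjusted p = 0.0845). Of 31 cholesterol and fatty acid genes 9 rose (29%), including ACACA (1.37 ± 0.13), and 6 fell (19.4%), including MVK (-1.77 ± 0.24). Glycolysis and hypoxia genes were split 10 to 10 of 40 (25% each), with EPAS1 (1.68 ± 0.22) and P4HA1 (1.14 ± 0.22) higher and CA9 (-2.11 ± 0.35, and -1.44 without control replicate 1) and ALDOC (-2.0 ± 0.25) lower. After correction ACACA and MVK stood at 0.65 and -1.59, EPAS1 and P4HA1 at 1.41 and 1.17, and CA9 and ALDOC at -1.03 and -1.23.

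The remaining lists are set beside 19.7% higher and 21.7% lower over all autosomal genes tested. Of TGF-beta ligands, receptors and targets 12 of 30 rose (40%) and 3 fell (10%), with 9 and 7 after correction. TGFB2 (1.87 ± 0.31) and TGFBR3 (1.31 ± 0.20) were higher. Among p53 targets 10 of 33 rose (30.3%) and 5 fell (15.2%). The death receptor gene TNFRSF10A rose by 1.86 ± 0.23, TNFRSF10B by 1.42 ± 0.16 and TP53INP1 by 1.53 ± 0.27, and RPS27L fell (-1.19). Of 51 DNA replication genes 8 rose (15.7%) and 12 fell (23.5%), and 8 and 7 did so after correction. Of 51 mitosis genes 8 rose (15.7%) and 7 fell (13.7%), but after correction 19 were higher and 6 lower. As counted the libraries of 28 mitosis genes did not overlap and were higher in sgScr (35.8% did so over all genes). In these lists PCNA, GINS2 and RPA3 fell (-1.30, -1.40 and -1.51), as did PTTG1 (-1.92; -1.15 without control replicate 1), and UHRF1, CENPF, KIF14 and ASPM rose by 1.12, 1.65, 1.78 and 1.60 (ASPM by 2.42 and KIF14 by 2.49 without control replicate 2). After correction CENPF, KIF14 and ASPM stood at 0.82, 1.11 and 0.74, and PTTG1 and PCNA at -0.83 and -0.57. HOX genes had 7 of 32 lower (21.9%, beside 21.7% of all genes) and 0 higher, and 3 lower and 4 higher after correction. Those called lower as counted included HOXC9 (-1.85 ± 0.34; -1.23 without control replicate 1), HOXB7 (-1.41 ± 0.19), HOXB2 (-1.16 ± 0.27) and HOXA5 (-1.04 ± 0.20). After correction HOXC9 and HOXB7 stood at -0.90 and -0.54, while HOXB2 (-0.33, adjusted p = 0.173) and HOXA5 (-0.42, adjusted p = 0.091) were not called. Receptor tyrosine kinases had 7 of 23 higher (30.4%) and 6 lower (26.1%). ROR1 rose (1.98 ± 0.39, and 2.78 without control replicate 2). FGFR2 (-2.08 ± 0.50) and ROR2 (-1.63 ± 0.48, and -1.66 with an adjusted p of 0.0514 after correction) fell. EPHA7 went from 27 counts in control to 1 in sgScr. The share of each list that was called in either direction is drawn in the plot of gene lists.

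**Figure D3:**
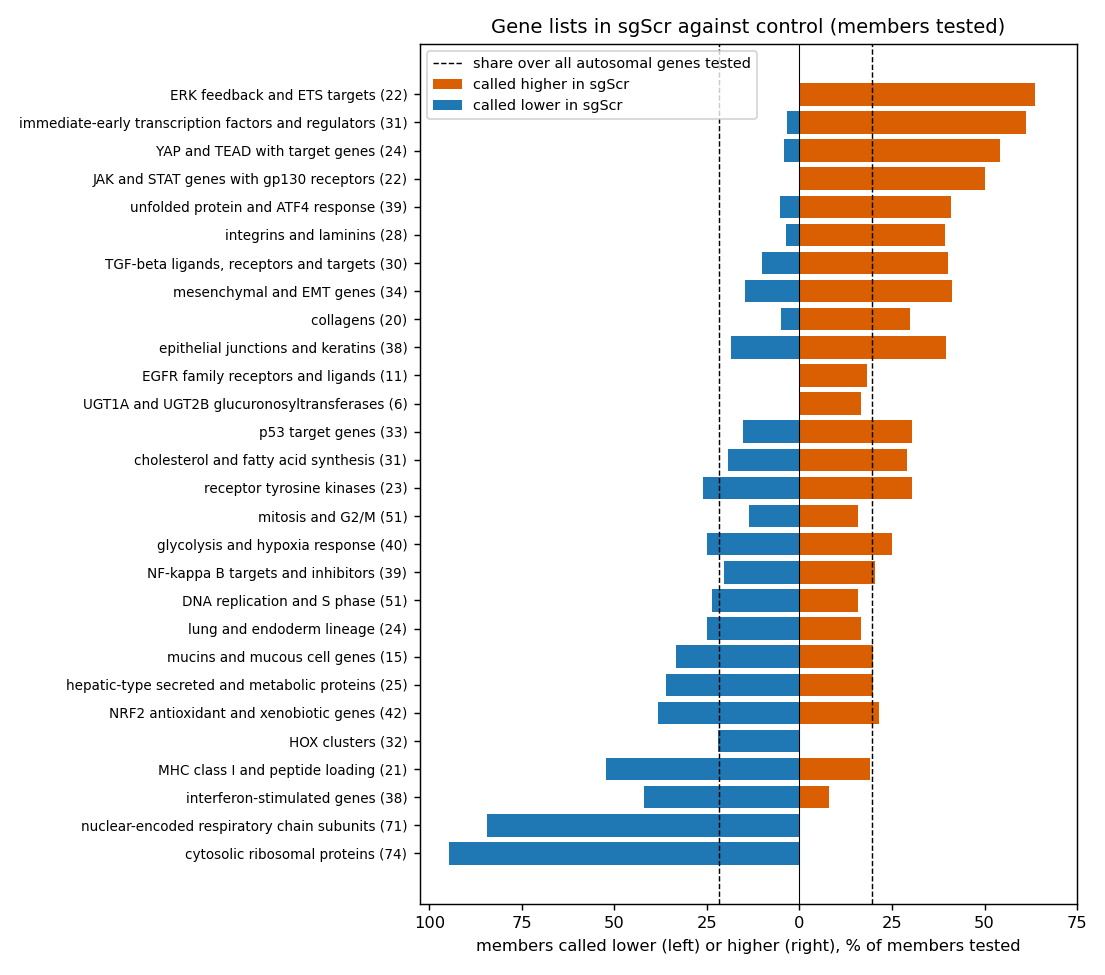
Bars give the percent of tested members of each gene list called higher (orange, right) or lower (blue, left) in sgScr against control, with the number tested in brackets, and dashed lines mark the shares over all autosomal genes tested (19.7% and 21.7%). ERK feedback and ETS target genes and immediate-early genes have the highest shares called higher (63.6% and 61.3%), and ribosomal protein and respiratory chain genes the highest shares called lower (94.6% and 84.5%).

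Secretory and lineage genes changed in both directions. Of 25 hepatic-type secreted and metabolic genes 5 rose (20%) and 9 fell (36%), beside 19.7% and 21.7% of all genes, with 8 and 5 after correction. Of 15 mucin and mucous cell genes 3 rose (20%) and 5 fell (33.3%). The fibrinogen chain gene FGB had 352 and 617 counts in control and 2529, 2416 and 2154 in sgScr (2.03 ± 0.25), whereas complement factor CFB (412 and 325 counts against 115, 122 and 91) and the protease inhibitor SERPINA3 (344 and 343 against 119, 114 and 113) fell (-2.03 and -1.84). MUC1 and MUC3A fell (-2.64 and -2.63, and -2.01 and -1.93 without control replicate 1), as did the trefoil factor TFF1 (-2.95; -2.24 without control replicate 1), and the mucus protein gene FCGBP rose from 934 and 420 counts to 6178, 5802 and 5483 (2.82 ± 0.39, and 3.58 without control replicate 1). After correction MUC1, MUC3A, TFF1 and FCGBP stood at -1.75, -2.62, -1.45 and 2.42. Of 24 lung and endoderm lineage genes 4 rose (16.7%) and 6 fell (25%), with 9 and 1 after correction. SOX9 rose by 0.84 ± 0.17, while CEBPD and ID1 fell (-1.18 and -1.02) as counted but stood at 0.18 and 0.19 after correction. The bilirubin-conjugating enzyme UGT1A1, which shares its last exons with the other UGT1A genes, had 0 and 5 counts in control, 17, 20 and 20 in sgScr and 158 and 77 in LA.

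The largest single increases included genes with almost no counts in control. CRISP3, a cysteine-rich secretory protein, had 1 and 0 counts in control, 0 in both LA libraries and 383, 364 and 286 in sgScr. The ratio to control was 568 (exact interval from 102 to 22470), and sgScr lay 199-fold above a floor of 3 counts over LA. The carcinoembryonic antigen CEACAM5 had 19 and 10 counts in control, 2 and 1 in LA and 405, 417 and 362 in sgScr. Its change was 4.48 ± 0.31 (5.07 without control replicate 1), and the ratio to LA was 228 (exact interval from 78.0 to 1110). ZBED6, a transcription factor gene that lies within another gene, rose from 7 and 11 counts to 679, 722 and 544 (5.88 ± 0.25), and to 431 and 506 in LA. ANKRD36BP1, CRYBG3, SLC7A11-AS1 and CCDC144B rose by 5.40, 4.59, 4.44 and 4.42 (CCDC144B by 5.07 without control replicate 1), beside changes of 5.73, 4.14, 3.86 and 4.03 in LA. PWAR5, with 7 counts in control, had a ratio to control of 38.3 in sgScr (exact interval from 18.4 to 95.7) and 36.1 in LA (from 17.3 to 90.7). ANKRD36BP1 and CCDC144B are copies of other genes and SLC7A11-AS1 is antisense to one, so that their counts are uncertain, and CRYBG3 rested on 1 and 59 control counts (3.65 without control replicate 1 and 9.27 without control replicate 2), as ANKRD36BP1 did on 0 and 18 (4.46 without control replicate 1 and 11.8 without control replicate 2).

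Among called genes with a mean count of at least 50 whose groups did not overlap, the largest decrease was that of PRKCDBP, the caveolar coat gene now named CAVIN3 (GRCh37 chr11:6340176-6341762). It had 268 and 158 counts in control, 307 and 398 in LA and 2, 6 and 2 in sgScr, so that sgScr lay at 0.0129 of control (exact interval from 0.00615 to 0.0240) and at 0.00821 of LA (exact interval from 0.00392 to 0.0152). The metallothionein MT1X had 2483 and 1178 counts in control and 217, 174 and 165 in sgScr and fell (-3.59; -2.88 without control replicate 1). The short genes TMEM238, C4orf48 and C19orf81 and the neuropeptide gene NPW had log2 fold changes of -4.11, -3.70, -3.10 and -3.30, and of -1.76, -1.44, -1.16 and -1.03 after the length and GC correction, where NPW was not called (adjusted p = 0.0608). Without control replicate 1 the values were -2.97, -2.57, -1.97 and -2.16, and without control replicate 2 they were -4.76, -4.35, -3.75 and -3.94. PRSS3, a trypsinogen gene with close copies, fell (-3.42; -2.80 without control replicate 1) and stood at -2.05 after the correction.

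Most changes had the same direction in LA. Of 5767 genes called in sgScr, 5673 were also tested in LA against control, and 5351 (94.3%) had the same sign there, 2547 of 2664 higher (95.6%) and 2804 of 3009 lower (93.2%). The sgScr and LA comparisons share both control libraries, which moves their changes together. With sgScr set against control 1 and LA against control 2 the same sign held for 91.4% of these genes, and with the controls exchanged for 94.9%. These genes were themselves called with both control libraries, so that the split does not remove the shared controls from their choice. After the length and GC correction it held for 88.8%. LA against control gave 1334 genes higher (9.62% of those tested) and 1354 lower (9.76%). Called in the same direction in both were 962 higher genes, 36.1% of those of sgScr and 72.1% of those of LA, and 1146 lower genes, 38.1% and 84.6%. The spread differed between the fits, with a common biological coefficient of variation of 0.213 in sgScr against control and 0.329 in LA against control. Between sgScr and LA directly, 1447 genes (10.4%) were higher and 1742 (12.5%) lower in sgScr, and these included 603 of the 2108 genes called the same way against control.

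**Figure D4:**
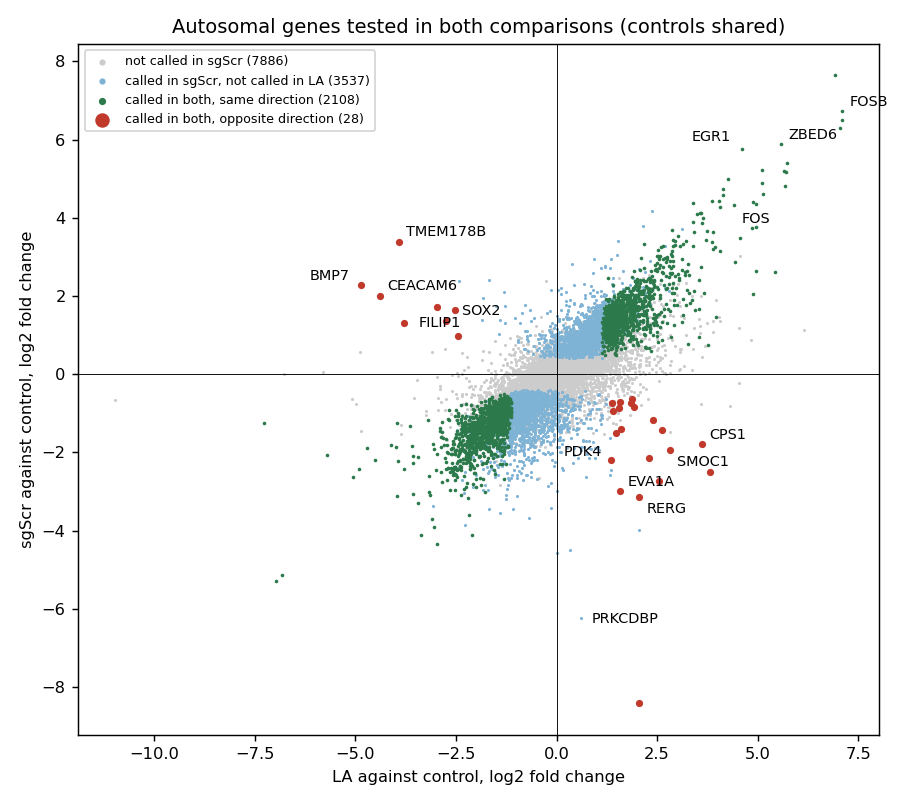
Each point is an autosomal gene tested in both comparisons, with its log2 fold change in LA (x axis) and in sgScr (y axis) against the shared control libraries. Green points (2108) were called in the same direction in both, red points (28) in opposite directions, and FOS, FOSB, EGR1 and ZBED6 lie at the upper right while PRKCDBP lies low near the vertical axis.

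Only 28 genes were called in opposite directions, 8 higher and 20 lower in sgScr, and all 28 were called between sgScr and LA as well. The adhesion antigen CEACAM6 (GRCh37 chr19:42254885-42276116), a neighbour of CEACAM5, had 304 and 712 counts in control, 0 and 53 in LA and 2538, 2571 and 2176 in sgScr. It rose by 2.0 ± 0.34 in sgScr (adjusted p = 0.00978; 2.66 without control replicate 2) and changed by -4.40 in LA (adjusted p = 0.0014). The membrane protein gene TMEM178B had 20 and 40 counts in control, 1 and 3 in LA and 412, 367 and 353 in sgScr. Its change was 3.39 in sgScr, and its ratio to control in LA was 0.0634 (exact interval from 0.0167 to 0.171). BMP7, a bone morphogenetic protein, had 15 and 19 counts in control, 0 and 1 in LA and 89, 102 and 105 in sgScr. Its change was 2.28 in sgScr, and its ratio to control in LA was 0.0280 (exact interval from 0.000688 to 0.167). The actin-binding FILIP1 (1.71 and -2.98) and the stem cell factor SOX2 (1.65 and -2.52, with 1.07 in sgScr without control replicate 1 and 2.66 without control replicate 2) followed the same pattern. For each of these genes the sgScr libraries lay above and the LA libraries below both control libraries.

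In the other direction, CPS1, the carbamoyl phosphate synthetase of the urea cycle (GRCh37 chr2:211342406-211543831), had 594 and 865 counts in control, 11378 and 7444 in LA and 261, 269 and 227 in sgScr. It changed by -1.79 ± 0.18 in sgScr (adjusted p = 0.00454) and by 3.62 in LA (adjusted p = 3.4e-05). RERG, a RAS-like growth inhibitor, had 81 and 175 counts in control, 380 and 767 in LA and 19, 18 and 15 in sgScr. EVA1A, an autophagy regulator, had 133 and 103 counts in control, 296 and 477 in LA and 20, 20 and 14 in sgScr. The pyruvate dehydrogenase kinase PDK4 (-2.19 and 1.34) and the matrix protein SMOC1 (-1.94 and 2.82) also fell in sgScr and rose in LA. In these 5 genes the groups did not overlap in any pair.

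**Figure D5:**
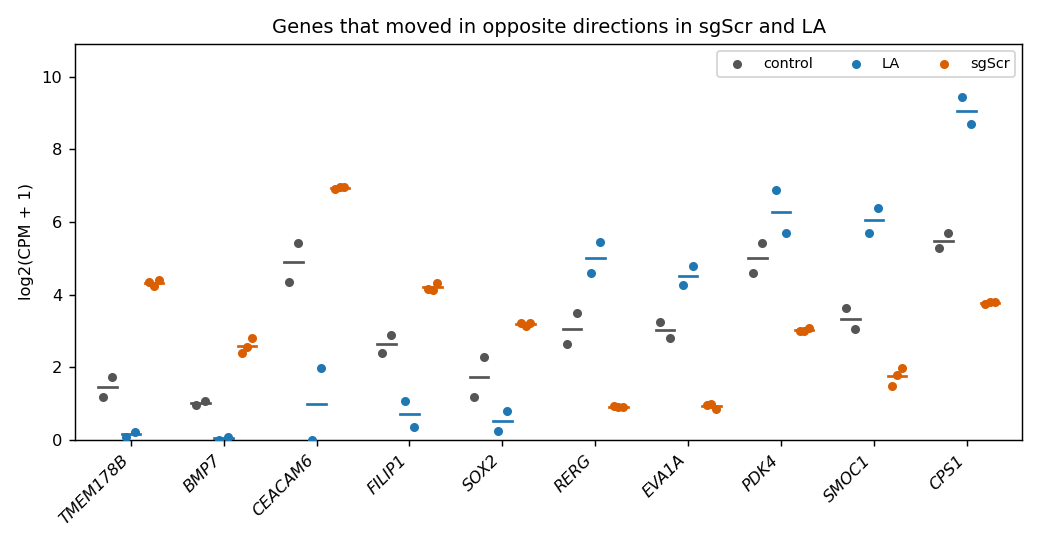
Each point is 1 library on the log2(CPM + 1) scale, with bars at group means, for the 10 genes with opposite calls named in the text. The orange sgScr points lie above both grey control points for TMEM178B, BMP7, CEACAM6, FILIP1 and SOX2 and below them for RERG, EVA1A, PDK4, SMOC1 and CPS1, with the blue LA points on the other side.

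A further set was called in sgScr, not called in LA, and differed between the pair directly. Besides PRKCDBP, PRSS3, ISG15 and FCGBP, it was led by PCDHAC1 and PCDHAC2, protocadherins that share exons, with changes of 4.18 and 3.41 in sgScr and 2.38 and 1.52 in LA (3.22 and 2.52 in sgScr without control replicate 1, and 10.8 and 6.50 without control replicate 2). FAM72C, which has near-identical copies, changed by 2.95 and 0.94 (3.62 in sgScr without control replicate 2). The tendon factor SCX changed by -2.79 and -0.14 (-1.20 in sgScr without control replicate 1 and -3.54 without control replicate 2), and its call in sgScr was lost after the length and GC correction (-0.77, adjusted p = 0.109).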

How the data were processed

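The deposited table holds unnormalized read counts for each gene in 9 libraries, as the authors obtained them. The submitters' processing notes name STAR 2.7.10b, hg19 and DESeq2 1.26.0. How reads were assigned to genes, and whether by strand, is not given in the sources used here. Genes were placed on GRCh37 with GENCODE annotation, 23311 by name, 1364 by an older name and 1506 by number.

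Counts were fitted in R 4.3.3 with edgeR 4.0.16 (TMM, filterByExpr, quasi-likelihood test, two-sided) separately for each comparison, and p-values were adjusted by Benjamini-Hochberg over the 14482 genes tested. Changes are log2 fold changes with their SE. Alternatives used DESeq2 1.42.0, limma 3.58.1 (voom), other scalings and filters, a replicate block, a loess offset (span 0.5) on length and GC content, and each library left out. The procedure was tested on simulated data. A length trend added to the simulated sgScr libraries was called as change in many genes without the loess offset. That follows from adding it, so that the simulation does not show which calls in these data are false. Plots used Python 3.11.15. Exact intervals are 95% binomial (Clopper-Pearson) and cover counting error only. Floors put 3 counts over a group that had 0 and leave out the counting error of the other group.

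The members and gene lists were chosen with earlier results of these data known. Genes named are ALK, LOC388942, SLC8A1, FOS, the 10 largest changes each way whose groups did not overlap and whose mean count was 50 or more, up to 4 called members per list, and the 5 largest each way among those that opposed or differed from LA. A few genes that this rule names are not reported here. Control and marker genes of the opening were chosen after their values were seen.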

Additional observations from a re-analysis of the deposited data

Results flagged for a closer look

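By the direct test of sgScr against LA (edgeR's quasi-likelihood test, adjusted p under 0.05), 23 genes named by rules other than the lists differed. Some of them were named because they opposed LA or because they differed from it by this same test. Their number therefore depends on that choice and is not a result. Values here are log2 fold changes of sgScr against LA. The lower genes in sgScr were PRKCDBP (-6.89), CPS1 (-5.46), RERG (-5.24), SMOC1 (-4.83), EVA1A (-4.63), PDK4 (-3.57), PRSS3 (-3.34), SCX (-2.72), TMEM238 (-2.07), ISG15 (-1.88) and MT1X (-1.47). The higher genes were CRYBG3 (0.41), PCDHAC1 (1.73), PCDHAC2 (1.84), FAM72C (1.96), FCGBP (2.38), SOX2 (4.10), FILIP1 (4.66), CEACAM6 (6.31), BMP7 (7.12), TMEM178B (7.26), CEACAM5 (7.71) and CRISP3 (11.34). The fitted values of BMP7, CEACAM5 and CRISP3 rest on 1, 3 and 0 counts in LA and depend on the prior count of the fit.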

How the results depend on the processing

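Counts of genes called higher and lower in sgScr (2743 and 3024) were 1747 and 1878 with limma-voom and group weights, 1849 and 1492 with the replicate number as a block, 1771 and 1401 with the replicate block and the length and GC correction together, and 1718 and 1841 at 2-fold or more. Leaving out each replicate gave 3 to 5807 higher and 0 to 5451 lower. With DESeq2 they were 3022 and 3328. Scaling by library size alone made 56.7% of calls higher instead of 47.6% and moved the median of all genes to 0.19. Control 1 minus control 2 correlated with sgScr 1 minus sgScr 2 at 0.0482 across genes. Since the sgScr libraries lay so close together, this does not show whether replicates of the same number were paired. The share of called genes with the same sign in LA (94.3%) was 91.4% with sgScr against control 1 and LA against control 2 and 88.8% with the length and GC correction. In alternatives chosen after seeing the data, it ranged from 91.1% to 95.4% with each control or LA library left out. The spread of autosome medians (0.864) was 0.190 with the correction, and 0.363 and 1.45 without control replicate 1 and 2. CEBPD, ID1 and KRT7 turned in sign, to 0.18, 0.19 and 0.0233 with the length and GC correction and 0.24, 0.17 and 0.00868 with the replicate block added. The cause was not tested.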
